A study of Mus musculus with 70 samples.

Results

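Acsm1, Acox2, Pnliprp1, Sptssb, Fetub and Aoc1 are 6 genes that stood higher in the lungs of mice given several chemicals classed as lung carcinogens. They were chosen by those differences in signal between treated and control mice, and were located by gene symbol in the annotation of the array. Where a gene has several probe sets, the one brightest on average across the 70 arrays stands for it. They are 6 of 18193 genes with a probe set of their own on the array, and all 6 lay above the filter on low values, which 14593 genes passed. As 4 of the 6 act on lipids and the other 2 do not, the working name of lipid genes covers the acyl-CoA synthetase Acsm1, the acyl-CoA oxidase Acox2, the lipase relative Pnliprp1 and the sphingolipid enzyme subunit Sptssb, but not Fetub or Aoc1.

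The study measured RNA from the right lobe of the lung in 70 B6C3F1 females, on 1 Affymetrix Mouse 430_2 array per animal, after 13 weeks of exposure, when the mice were 18 weeks old. It asked for expression patterns that separate chemicals that raise lung tumours in female mice from chemicals that do not. In set 1, where each group held 3 mice, feed carried 1,5-naphthalenediamine at 2000 ppm (positive for lung tumours), N-(1-naphthyl)ethylenediamine dihydrochloride at 2000 ppm (negative) or pentachloronitrobenzene at 8187 ppm (negative), and 2,3-benzofuran (positive) was given in corn oil by gavage at 240 mg/kg. In set 2, where each treated group held 4 mice, feed carried 2,2-bis(bromomethyl)-1,3-propanediol at 1250 ppm (positive), 4-nitroanthranilic acid at 10000 ppm, malathion at 16000 ppm or diazinon at 200 ppm (all 3 negative). Corn oil gavage in set 2 carried coumarin at 200 mg/kg, 1,2-dibromoethane at 62 mg/kg or benzene at 100 mg/kg (all 3 positive), while N-methylolacrylamide (positive, 50 mg/kg) and 2-chloromethylpyridine hydrochloride (negative, 250 mg/kg) were given in water by gavage. Feed was given on 7 days a week and gavage on 5 days a week at 5 ml/kg. Controls received feed, corn oil or water alone: 3 feed and 3 corn oil mice in set 1, and 4 feed, 4 water and 8 corn oil mice in set 2. Each chemical was set against the control of its own vehicle and set. Because coumarin, 1,2-dibromoethane and benzene share the 8 corn oil controls, and other chemicals share feed or water controls, their differences are not independent. Set is the number before the hyphen in the animal identifier, and the labels do not say what it stands for.

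Acsm1 is a mitochondrial enzyme that joins medium-chain fatty acids to coenzyme A, the activation step before they can be oxidized or conjugated. Acox2 is the peroxisomal oxidase that takes branched-chain fatty acids and the side chain of bile acid intermediates through the first step of shortening. Pnliprp1 is a relative of pancreatic lipase, known from the exocrine pancreas, with little or no activity on triglycerides of its own. Sptssb is a small subunit that activates serine palmitoyltransferase, which starts sphingolipid synthesis. Fetub is fetuin-B, a protease inhibitor of the cystatin superfamily that is made mainly by the liver and secreted. Aoc1 is the secreted diamine oxidase that degrades histamine and putrescine. In a whole lung lobe a gene can be higher because more cells express it or because each such cell holds more of its RNA, and these cannot be told apart here.

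The promoters of the genes are shown because the 6 genes were high together in several treated groups. All 6 genes matched a RefSeq window of 250 bases before to 50 bases after an annotated start (build GRCm38.p6), in 9 windows in all, since Acox2, Fetub and Aoc1 have 2 starts each. The motifs searched, on both strands, were TGACNNNGC, the core of the antioxidant response element bound by NRF2, GCGTG, the core of the xenobiotic response element bound by the aryl hydrocarbon receptor, and TATAAA, the TATA box. The first was found in 3 of the 9 windows, the second in 1 and the third in 1. Among all 32851 windows of the same length, 12.4% hold the first, 32.4% the second and 13.6% the third. Of the 4 windows with a match, 3 follow in the direction of the gene, with the matches in capitals. The second Acox2 window overlaps the first and holds the same match, so it is not printed. The window of Pnliprp1 is added, since that gene parted from the other 5 in 1 chemical. The first Acox2 window lies at chr14:8258970-8259269 on the minus strand, the first Fetub window at chr16:22918132-22918431 and the second at chr16:22919972-22920271 on the plus strand, and that of Pnliprp1 at chr19:58728637-58728936 on the plus strand.
Acox2, first window: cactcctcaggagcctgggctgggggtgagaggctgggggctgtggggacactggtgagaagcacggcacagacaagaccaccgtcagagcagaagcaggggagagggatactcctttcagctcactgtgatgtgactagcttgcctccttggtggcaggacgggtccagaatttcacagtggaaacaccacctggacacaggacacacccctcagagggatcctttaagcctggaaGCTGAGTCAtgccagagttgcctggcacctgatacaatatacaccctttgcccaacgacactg
Fetub, first window: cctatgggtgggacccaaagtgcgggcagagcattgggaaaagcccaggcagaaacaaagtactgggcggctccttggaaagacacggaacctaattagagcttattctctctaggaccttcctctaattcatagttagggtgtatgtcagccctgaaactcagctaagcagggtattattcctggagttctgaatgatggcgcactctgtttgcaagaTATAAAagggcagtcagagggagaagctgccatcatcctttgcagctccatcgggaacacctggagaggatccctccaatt
Fetub, second window: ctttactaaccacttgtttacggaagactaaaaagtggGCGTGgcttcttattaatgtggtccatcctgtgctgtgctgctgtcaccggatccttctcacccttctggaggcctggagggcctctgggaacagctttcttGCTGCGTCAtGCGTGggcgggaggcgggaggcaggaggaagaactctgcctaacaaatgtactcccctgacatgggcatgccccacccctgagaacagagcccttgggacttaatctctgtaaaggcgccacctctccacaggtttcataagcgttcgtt
Pnliprp1: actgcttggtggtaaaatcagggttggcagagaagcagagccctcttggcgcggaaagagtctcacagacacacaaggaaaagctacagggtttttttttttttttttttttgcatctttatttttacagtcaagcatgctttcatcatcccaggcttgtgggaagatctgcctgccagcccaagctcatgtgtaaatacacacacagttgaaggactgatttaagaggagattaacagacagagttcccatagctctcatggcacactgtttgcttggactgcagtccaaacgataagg
In Acox2 the reverse strand holds the antioxidant core, from position -13 relative to the first annotated start, and the same bases lie at -193 relative to the second start. In Fetub the TATA box begins at -31 of the first start. The second Fetub window holds the antioxidant core on the reverse strand at -110 and the xenobiotic core on the forward strand at -212 and -100, and no match overlaps another. The windows of Acsm1, Pnliprp1, Sptssb and Aoc1 hold none of these letters. A match describes the letters only and does not show binding.

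Arrays were on a common scale, with medians between 5.41 and 5.52 on the log2 scale and no missing value, and 0 pairs of arrays were identical. RNA integrity numbers, given for 57 of the 70 samples, ran from 7.1 to 9.4. The 1,2-dibromoethane mouse 2-56 and the 2,3-benzofuran mouse 1-10 stood apart in the difference between 3′ and 5′ control probe sets, at 0.99 and 0.52 against 0.083 to 0.40 in all other mice. Markers of the expected lung cells were present: the mean levels of the alveolar type II markers ran from 9.91 to 14.4, those of the club cell markers from 9.25 to 14.2. Liver markers varied between animals of set 2. The mean of 8 hepatocyte genes, Alb among them, lay between 4.59 and 5.00 in all set 1 mice and reached 9.19 in the diazinon mouse 2-21, 8.41 in the 2,2-bis(bromomethyl)-1,3-propanediol mouse 2-10 and 7.92 in the feed control 2-43. Results below are given with that list beside them where it moved.

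At least 5 of the 6 genes were higher in each of 4 of the 7 positive chemicals: 1,5-naphthalenediamine, 2,3-benzofuran, coumarin and 1,2-dibromoethane. A gene is counted as called where limma's adjusted p in the fit over all 14593 genes is under 0.05. In 1,5-naphthalenediamine 5 of 6 were called higher, where 0.959% of all genes were. In 2,3-benzofuran 6 of 6 were called higher (3.55% of all genes), in coumarin 6 of 6 (2.91%) and in 1,2-dibromoethane 5 of 6 (1.94%). As these contrasts chose the genes, the counts describe the choice and nothing is read from them. Animal by animal, every treated mouse lay above every control in 5 of 6 genes for 1,5-naphthalenediamine (9.07% of all genes), in 6 of 6 for 2,3-benzofuran (13%), in 6 of 6 for coumarin (1.62%) and in 4 of 6 for 1,2-dibromoethane (0.884%). The median log2 difference of the 6 genes was 2.00 in 1,5-naphthalenediamine, 1.47 in 2,3-benzofuran, 1.96 in coumarin and 1.11 in 1,2-dibromoethane, against -0.02, 0.06, -0.01 and 0.00 for all genes tested. When only the arrays of the groups compared entered the fit, 3 genes were called in 2,3-benzofuran and 3 in 1,2-dibromoethane. Of all genes, 518 were called higher in 2,3-benzofuran, but 48 without mice 1-10 and 2-56, which stand apart in RNA quality, a step that also leaves 2 treated mice there, and 9 in the fit restricted to its own treated and control arrays. In such a restricted fit 128 genes in place of 425 were called higher in coumarin, 8 in place of 283 in 1,2-dibromoethane and 213 in place of 140 in 1,5-naphthalenediamine. Leaving out mouse 1-10 or corn oil control 1-22 left 4 calls in 2,3-benzofuran, without Pnliprp1 and Aoc1, and 5 were left without control 1-24 or 1-25 or mouse 1-6. In 1,2-dibromoethane the Fetub call was lost without mouse 2-52, 2-54 or 2-58 or corn oil control 2-134 or 2-60.

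In the other 3 positive chemicals limma called 0 of the 6 genes, and 880, 821 and 2253 of all genes had an unadjusted p under 0.05 and were higher in benzene, 2,2-bis(bromomethyl)-1,3-propanediol and N-methylolacrylamide. Benzene had 0 of 6 (0.0822% of all genes were called higher), 2,2-bis(bromomethyl)-1,3-propanediol 0 of 6 (0%) and N-methylolacrylamide 0 of 6 (10.7%). The last of these chemicals called the most genes of all 13, and its median difference of the 6 genes was 0.01. All treated mice lay above all controls in 1 of 6 genes for 2,2-bis(bromomethyl)-1,3-propanediol (8.31% of all genes), namely Sptssb, and in 0 for benzene (0.349%) and N-methylolacrylamide (7.35%).

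No negative chemical had a call either. The share of all genes called higher was 0.00685% in N-(1-naphthyl)ethylenediamine dihydrochloride, 0.00685% in pentachloronitrobenzene, 0% in 4-nitroanthranilic acid, 0% in 2-chloromethylpyridine hydrochloride, 1.03% in malathion and 0% in diazinon. At an unadjusted p under 0.05, limma called 505, 269, 73, 962, 1291 and 366 genes higher in these 6 chemicals. Treated and control mice were apart, with the treated higher, in 1 of 6 genes for 2-chloromethylpyridine hydrochloride (Acsm1; 1.85% of all genes) and in 0 of 6 for N-(1-naphthyl)ethylenediamine dihydrochloride (6.91%), pentachloronitrobenzene (4.23%), 4-nitroanthranilic acid (1%), malathion (7.63%) and diazinon (2.38%). Malathion had the highest median of the 6 genes among the negative chemicals, 0.47, and, without its mouse 2-33, the lowest of its 4 in Acsm1, Acox2, Fetub, Sptssb and Aoc1, 2 of the 6 genes, Aoc1 and Sptssb, were called higher. Without feed control 2-43, Acox2 was called higher in malathion.

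**Figure D1:**
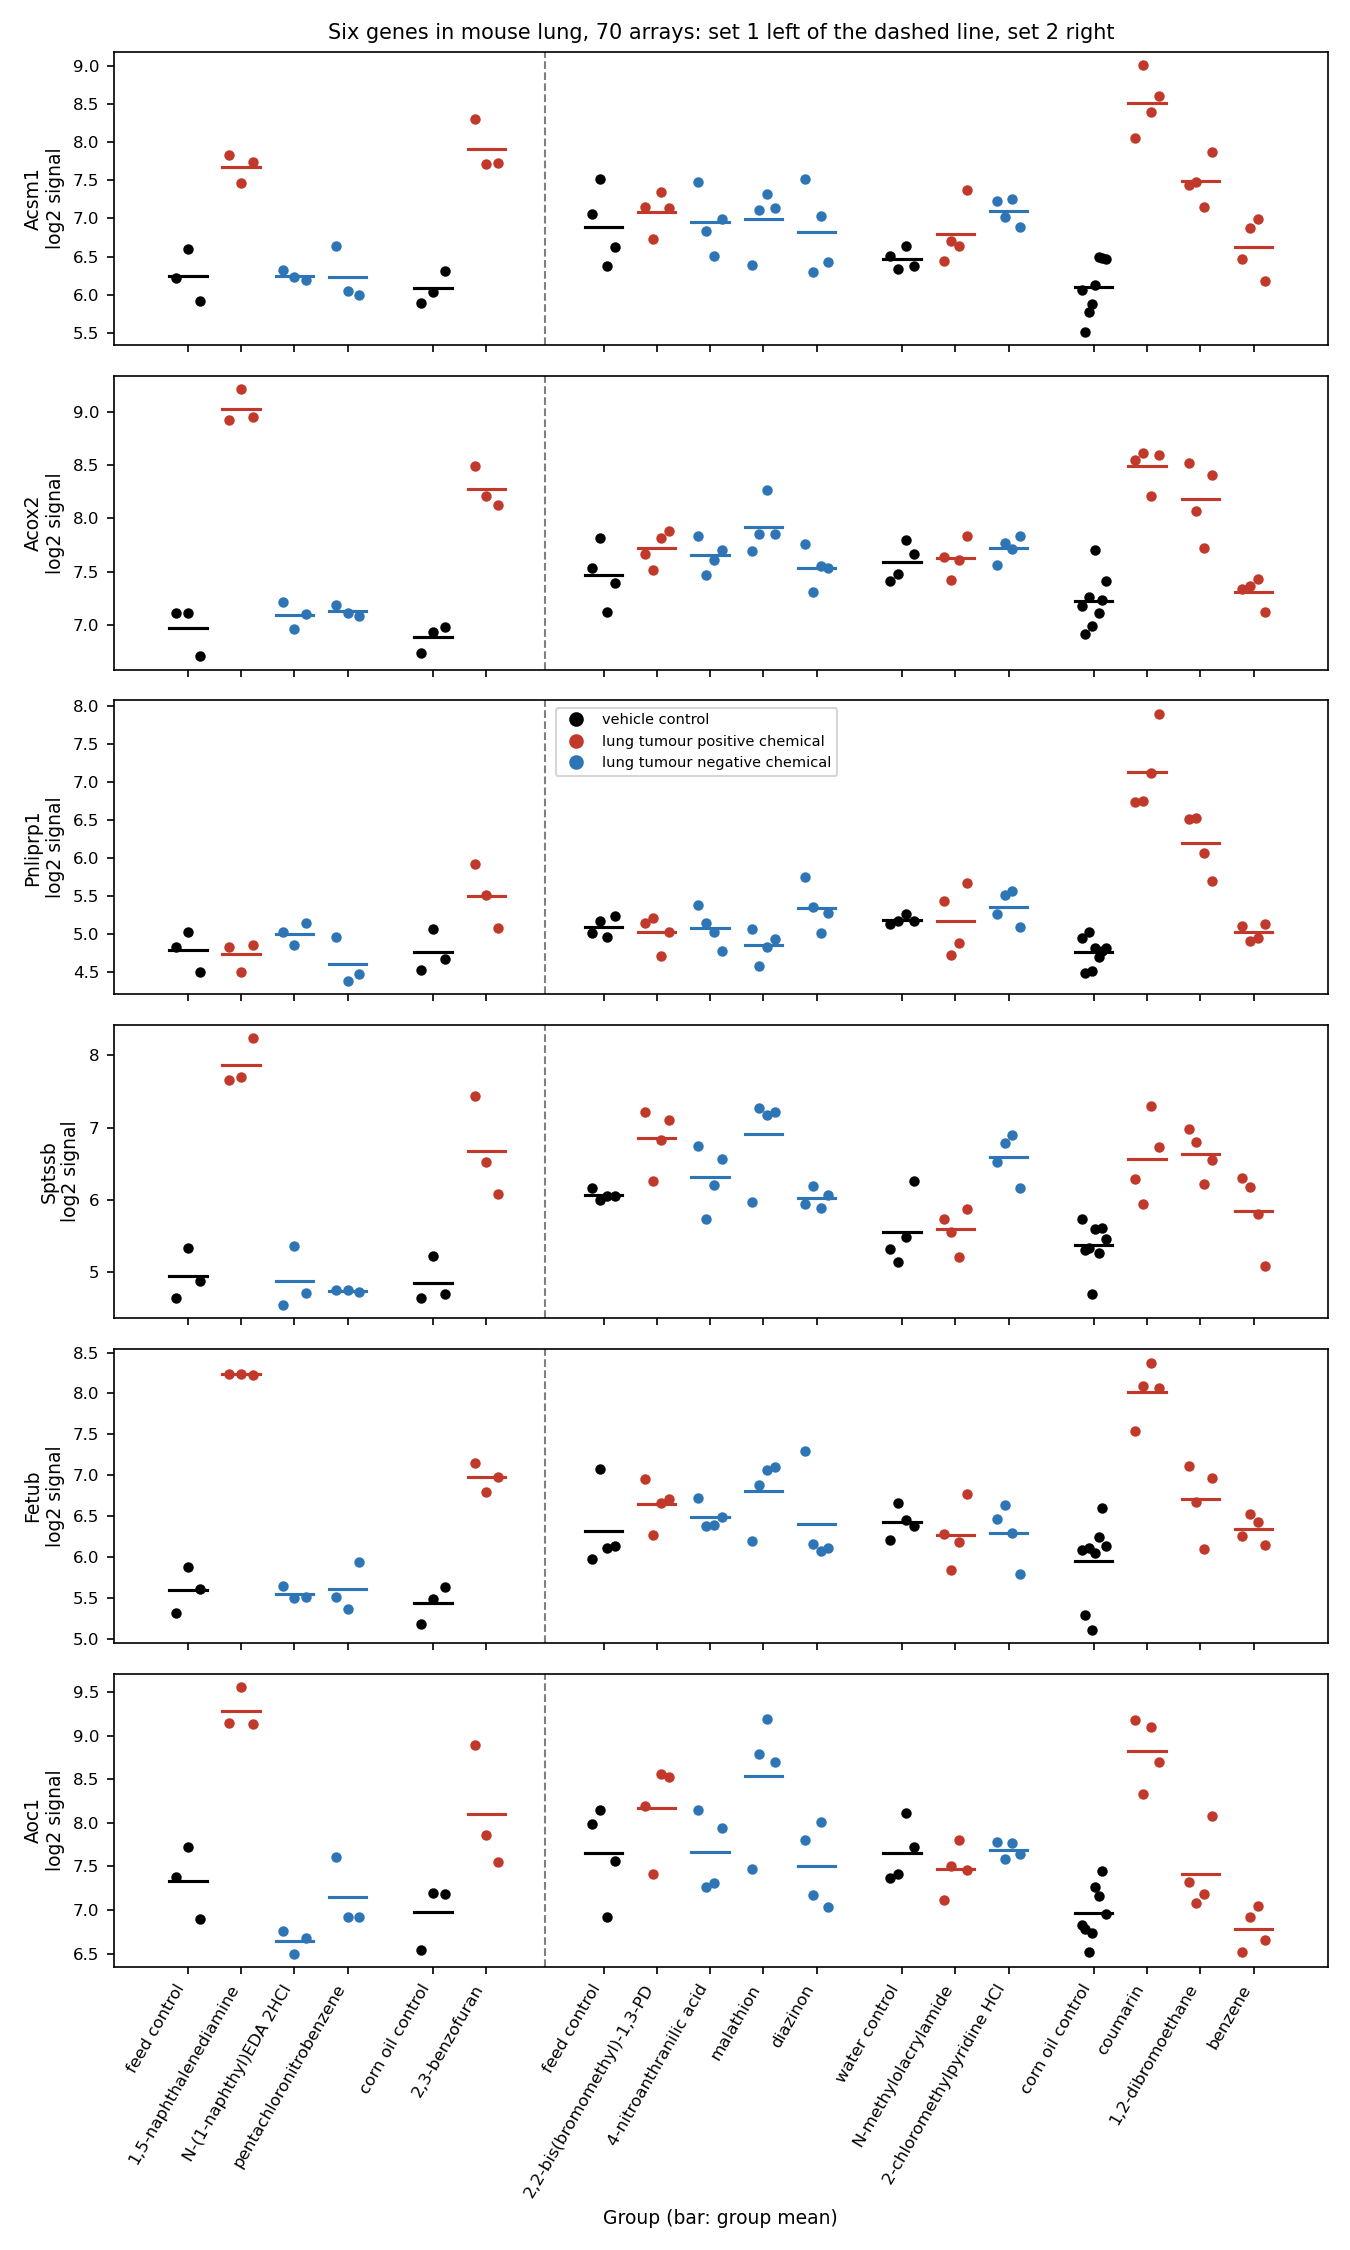
Log2 signal of the 6 genes (1 panel each, vertical axis) in every one of the 70 mice, by group (horizontal axis), with a bar at the group mean. The dashed line parts set 1 from set 2, black points are vehicle controls, red points chemicals positive and blue points chemicals negative for lung tumours. All 4 coumarin mice lie above all 8 corn oil controls of set 2 in every panel, and the 3 mice given 1,5-naphthalenediamine lie among the feed controls of set 1 in the Pnliprp1 panel.

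**Figure D2:**
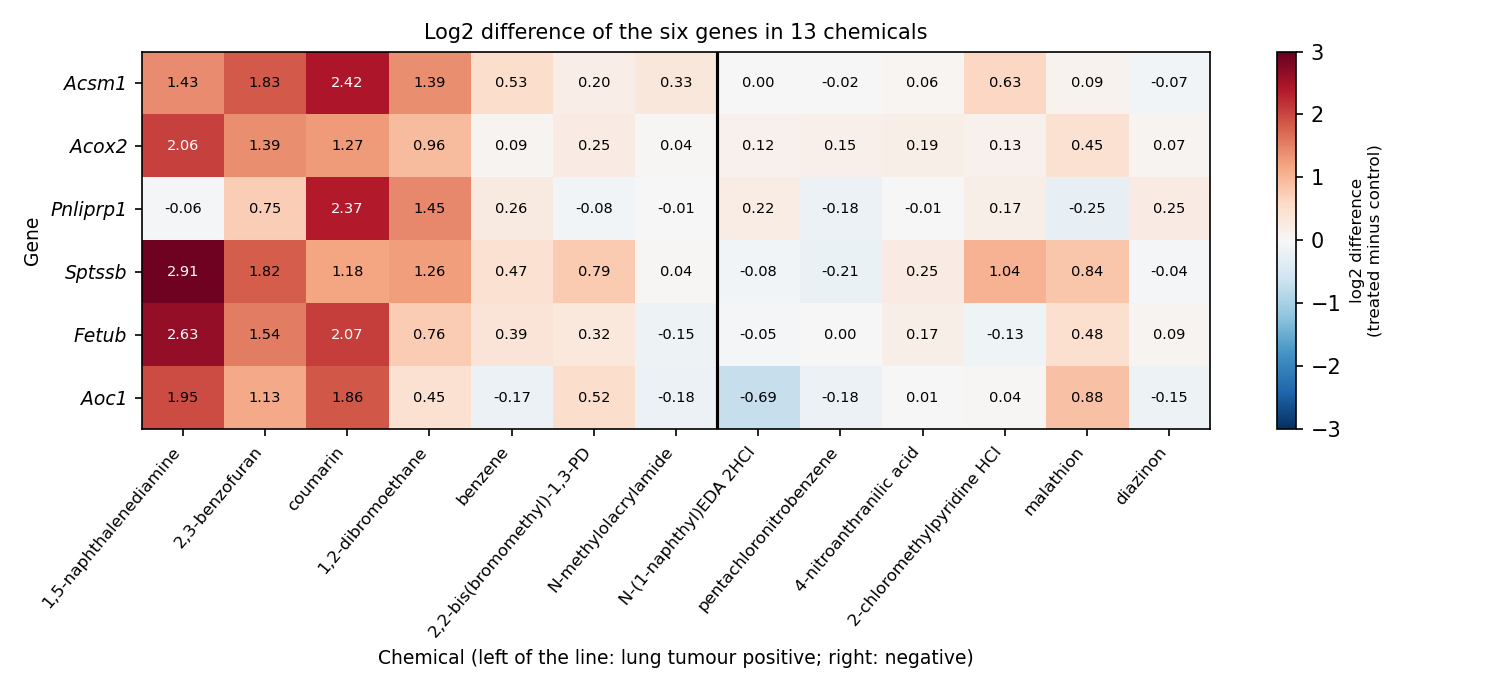
Log2 difference, treated minus matched control mean, of the 6 genes (rows) in the 13 chemicals (columns), with the value in each cell and red for higher in treated mice. The 7 positive chemicals stand left of the line. Differences of 0.45 or more fill the first 4 columns except for Pnliprp1 in 1,5-naphthalenediamine. Such differences also stand in other columns. The negative malathion has them in Acox2 (0.45), Fetub (0.48), Sptssb (0.84) and Aoc1 (0.88). The negative 2-chloromethylpyridine hydrochloride has them in Acsm1 (0.63) and Sptssb (1.04). Among the other positive chemicals, benzene has them in Acsm1 (0.53) and Sptssb (0.47), and 2,2-bis(bromomethyl)-1,3-propanediol in Sptssb (0.79) and Aoc1 (0.52).

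Acsm1, the medium-chain acyl-CoA synthetase (Entrez gene 117147, probe set 1418668_at, chromosome 7, 119617757 to 119662515 in GRCm38.p6), was highest in the coumarin mice within set 2. Its log2 signal was 8.06, 9.01, 8.40 and 8.60 in the 4 coumarin mice and 7.44, 7.48, 7.15 and 7.88 in the 4 given 1,2-dibromoethane. The 8 corn oil controls of set 2 ran from 5.51 through a median of 6.10 to 6.50. All 8 treated mice therefore lay above all 8 controls. In set 1 the 3 mice given 2,3-benzofuran had 8.30, 7.72 and 7.73, and their 3 corn oil controls 5.89, 6.04 and 6.31. The 3 mice given 1,5-naphthalenediamine had 7.83, 7.46 and 7.74, and their 3 feed controls 6.22, 6.60 and 5.92. Again the treated and control values did not overlap.

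On the log2 scale Acsm1 was higher by 2.42 ± 0.21 (SE) in coumarin, 1.83 ± 0.28 in 2,3-benzofuran, 1.43 ± 0.28 in 1,5-naphthalenediamine and 1.39 ± 0.21 in 1,2-dibromoethane. The coumarin difference corresponds to 5.34-fold and that of 1,2-dibromoethane to 2.61-fold. In the other 9 chemicals the difference lay between -0.07 in diazinon and 0.63 ± 0.24 in 2-chloromethylpyridine hydrochloride, whose 4 mice (7.23, 7.01, 7.25 and 6.88) all lay above the 4 water controls (6.50, 6.33, 6.64 and 6.37). Within set 2 coumarin stood 1.03 above 1,2-dibromoethane, more than the larger SD of the pair (0.40), and 1,2-dibromoethane stood 0.39 above 2-chloromethylpyridine hydrochloride (larger SD 0.30). Below that no neighbours in the order of means differed by more than their larger SD. Within set 1, 2,3-benzofuran and 1,5-naphthalenediamine differed by 0.24, less than their larger SD of 0.33, and stood 1.43 above the next group.

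Acox2, the peroxisomal branched-chain acyl-CoA oxidase (Entrez gene 93732, probe set 1420673_a_at, chromosome 14, 8225511 to 8259019), was highest within set 1 in 1,5-naphthalenediamine. The 3 treated mice had 8.93, 9.21 and 8.95, and the 3 feed controls 7.11, 7.11 and 6.70. With 2,3-benzofuran the values were 8.50, 8.21 and 8.12, against 6.74, 6.94 and 6.98 in corn oil. Neither pair of groups overlapped. In set 2 the coumarin mice had 8.54, 8.62, 8.21 and 8.60, and those given 1,2-dibromoethane 8.52, 8.07, 7.72 and 8.41. The corn oil controls ran from 6.92 through 7.20 to 7.70, so that the lowest 1,2-dibromoethane mouse, 2-56, lay 0.02 above the highest control, 2-93. That mouse is also the array that stands apart in RNA quality.

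The log2 differences of Acox2 were 2.06 ± 0.17 in 1,5-naphthalenediamine (4.16-fold), 1.39 ± 0.17 in 2,3-benzofuran, 1.27 ± 0.12 in coumarin and 0.96 ± 0.12 in 1,2-dibromoethane. Acox2 had the lowest median SD within groups of the 6 genes, 0.17. In the other chemicals the difference ran from 0.04 in N-methylolacrylamide to 0.45 ± 0.14 in malathion, where 3 of 4 mice lay above all feed controls. In set 1, 1,5-naphthalenediamine stood 0.75 above 2,3-benzofuran and 2,3-benzofuran 1.15 above pentachloronitrobenzene, each more than the larger SD of the pair (0.19). In set 2 no step between neighbouring groups was larger than their larger SD.

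Pnliprp1, the pancreatic lipase relative (Entrez gene 18946, probe set 1415777_at, chromosome 19, 58728887 to 58744169), followed another pattern. Coumarin gave 6.73, 6.75, 7.13 and 7.90 and 1,2-dibromoethane 6.51, 6.53, 6.07 and 5.70. The corn oil controls of set 2 ran from 4.49 through 4.79 to 5.03, so no treated mouse came within 0.6 of a control. The 3 mice given 2,3-benzofuran had 5.93, 5.51 and 5.08, and their controls 4.53, 5.07 and 4.67. Mouse 1-8 lay 0.01 above the highest of these controls. In 1,5-naphthalenediamine the values were 4.83, 4.50 and 4.85, within the range of the feed controls at 4.83, 5.03 and 4.50.

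Pnliprp1 was higher by 2.37 ± 0.17 in coumarin (5.17-fold), 1.45 ± 0.17 in 1,2-dibromoethane and 0.75 ± 0.23 in 2,3-benzofuran. In 1,5-naphthalenediamine, where the other 5 genes were higher by 1.43 to 2.91, its difference was -0.06 ± 0.23, with a 95% interval from -0.51 to 0.40. The remaining chemicals ran from -0.25 in malathion to 0.26 in benzene. In set 2 coumarin stood 0.92 above 1,2-dibromoethane, which stood 0.85 above the next group, both more than the larger SD. As Pnliprp1 is a gene of pancreatic acinar cells, 9 markers of those cells were read beside it. Of these, 3 (Cela2a, Cpa1 and Cel) lay below the filter on low values, and none of the 6 tested was called in any of the 13 chemicals. The mean level of all 9 markers was between 4.61 and 5.20 in every mouse. The list stood 0.10 higher in coumarin and 0.11 higher in 1,2-dibromoethane than in their controls.

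Sptssb, the activating subunit of serine palmitoyltransferase (Entrez gene 66183, probe set 1417803_at, chromosome 3, 69819538 to 69861363), had the largest single difference. The 3 mice given 1,5-naphthalenediamine had 7.65, 7.70 and 8.24, and the feed controls 4.64, 5.33 and 4.88. The 3 given 2,3-benzofuran had 7.44, 6.52 and 6.08, against 4.64, 5.23 and 4.69 in corn oil. Both treated groups lay clear of their controls, and 2,3-benzofuran mouse 1-10 was the highest of its group. In set 2 coumarin gave 6.29, 5.94, 7.30 and 6.73 and 1,2-dibromoethane 6.98, 6.80, 6.22 and 6.55, above corn oil controls that ran from 4.70 through 5.40 to 5.74.

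The differences of Sptssb were 2.91 ± 0.32 in 1,5-naphthalenediamine (7.52-fold), 1.82 ± 0.32 in 2,3-benzofuran, 1.26 ± 0.24 in 1,2-dibromoethane and 1.18 ± 0.24 in coumarin. Sptssb also stood higher in chemicals outside these 4. In 2,2-bis(bromomethyl)-1,3-propanediol its 4 mice had 7.22, 6.27, 6.83 and 7.10, all above the feed controls of set 2 (6.16, 6.00, 6.05 and 6.05), a difference of 0.79 ± 0.28. In 2-chloromethylpyridine hydrochloride the difference was 1.04 ± 0.28, with 3 of 4 mice above all water controls, and in malathion 0.84 ± 0.28, with 3 of 4 above and mouse 2-33 below all feed controls. Within set 2 the means of malathion, 2,2-bis(bromomethyl)-1,3-propanediol, 1,2-dibromoethane, 2-chloromethylpyridine hydrochloride and coumarin followed each other in steps of 0.03 to 0.21, none larger than the larger SD of its pair. Sptssb alone of the 6 genes has a second probe set of 1 gene, 1417802_at, whose signal correlated with the first at r = 0.74 (Pearson, 70 arrays that include all groups). It gave smaller differences in the same order of size for 1,5-naphthalenediamine (1.48 ± 0.18) and 2,3-benzofuran (0.83 ± 0.18). Coumarin gave 0.41 ± 0.13 with this probe set and 1,2-dibromoethane 0.37 ± 0.13. In the other chemicals named above it gave 0.34 ± 0.15 (malathion), 0.26 ± 0.15 (2-chloromethylpyridine hydrochloride) and 0.07 ± 0.15 (2,2-bis(bromomethyl)-1,3-propanediol).

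Fetub, the secreted protease inhibitor (Entrez gene 59083, probe set 1449555_a_at, chromosome 16, 22918382 to 22939768), was nearly equal in the 3 mice given 1,5-naphthalenediamine. They had 8.24, 8.24 and 8.22, an SD of 0.012, and the feed controls 5.32, 5.88 and 5.62. With 2,3-benzofuran the values were 7.15, 6.80 and 6.98 against 5.19, 5.49 and 5.63. In set 2 coumarin gave 7.54, 8.10, 8.38 and 8.07, all above the corn oil controls, which ran from 5.12 through 6.10 to 6.60. The mice given 1,2-dibromoethane had 7.12, 6.68, 6.11 and 6.96, and mouse 2-56 lay within the range of the controls.

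Fetub was higher by 2.63 ± 0.29 in 1,5-naphthalenediamine (6.18-fold), 2.07 ± 0.22 in coumarin, 1.54 ± 0.29 in 2,3-benzofuran and 0.76 ± 0.22 in 1,2-dibromoethane. In the other chemicals the difference ran from -0.15 in N-methylolacrylamide to 0.48 ± 0.25 in malathion. Since Fetub is known as a liver gene, the hepatocyte list is given beside it. That list differed from the controls by 0.005 in 1,5-naphthalenediamine, -0.02 in 2,3-benzofuran, 0.23 in coumarin and -0.66 in 1,2-dibromoethane, and none of its 8 genes was called in any chemical. With the level of the list as a covariate, an alternative chosen after seeing the data, the Fetub differences were 2.63, 1.54, 2.01 and 0.92 in the same order. Its deviations from the group means went with those of the hepatocyte list (Pearson r = 0.51, Spearman rho = 0.42, 70 mice, and r = 0.43 without the mice 2-21 and 2-99), and the 2 single high values of Fetub, 7.30 in diazinon mouse 2-21 and 7.08 in feed control 2-43, were in the animals with the highest hepatocyte level of their groups.

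Aoc1, the diamine oxidase (Entrez gene 76507, probe set 1424600_at, chromosome 6, 48895255 to 48909188), had the highest median SD within groups of the 6 genes, 0.40. The 3 mice given 1,5-naphthalenediamine had 9.14, 9.56 and 9.13, and the feed controls 7.38, 7.72 and 6.90. The 4 given coumarin had 9.18, 8.33, 9.09 and 8.70, and the corn oil controls of set 2 ran from 6.51 through 6.89 to 7.45. Neither treated group overlapped its controls. With 2,3-benzofuran the values were 8.90, 7.87 and 7.55 against 6.54, 7.19 and 7.19, and the highest was again mouse 1-10. With 1,2-dibromoethane they were 7.32, 7.08, 7.19 and 8.07, and only mouse 2-58 lay above all controls.

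Aoc1 was higher by 1.95 ± 0.33 in 1,5-naphthalenediamine (3.85-fold), 1.86 ± 0.25 in coumarin, 1.13 ± 0.33 in 2,3-benzofuran and 0.45 ± 0.25 in 1,2-dibromoethane, the last of which was not called. Malathion gave 0.88 ± 0.29 with 3 of 4 mice above all controls, and 2,2-bis(bromomethyl)-1,3-propanediol 0.52 ± 0.29 with 3 of 4. In N-(1-naphthyl)ethylenediamine dihydrochloride the 3 mice (6.76, 6.50 and 6.68) lay below all 3 feed controls, a difference of -0.685 ± 0.33 that was not called. In set 2 the means of coumarin, malathion and 2,2-bis(bromomethyl)-1,3-propanediol were 8.82, 8.54 and 8.17, and the steps between them were smaller than their larger SDs of 0.75.

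Ciliated cell markers moved with the genes. The mean of 8 ciliated cell genes, Foxj1 and Dnah5 among them, was 0.59 above the controls in 2,3-benzofuran, 0.50 in coumarin, 0.40 in 1,2-dibromoethane and 0.24 in 1,5-naphthalenediamine, and between -0.35 and 0.11 in the other 9 chemicals. Of the 8 genes, 2 were called higher in 2,3-benzofuran, 4 in coumarin, 3 in 1,2-dibromoethane and none in 1,5-naphthalenediamine. The shares of all genes called higher were 3.55%, 2.91%, 1.94% and 0.959% in the same order. The list ran from 8.84 to 9.40 in 2,3-benzofuran mice and from 8.30 to 8.63 in their controls, from 8.79 to 9.12 in coumarin and from 8.53 to 9.06 in 1,2-dibromoethane against 8.16 to 8.75 in theirs, and from 8.84 to 8.88 in 1,5-naphthalenediamine against 8.29 to 8.84. Of the club cell list, 3 of 8 genes were called higher in coumarin (2.91% of all genes) and 3 in 1,2-dibromoethane (1.94%), and of the mucous cell list 3 and 2 of 6. The mean of the mucous list was 1.14 higher in coumarin and 0.38 in 1,2-dibromoethane, and that of the club list 0.46 and 0.39.

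Within groups the ciliated list had the highest r with Aoc1, Acox2 and Acsm1. Over the deviations of the 70 mice from their group means, Pearson r was 0.72 for Aoc1, 0.66 for Acox2, 0.62 for Acsm1, 0.37 for Fetub, 0.35 for Sptssb and 0.08 for Pnliprp1. Spearman rho was 0.75, 0.64, 0.59, 0.34, 0.31 and 0.06 in the same order, and r without the 2 mice farthest from the median (1-29 and 2-95) was 0.72, 0.69, 0.59, 0.37, 0.37 and 0.06. Other lists went with the same genes: Aoc1 had r = 0.67 with the mucous, 0.62 with the adipocyte, 0.53 with the club and -0.55 with the endothelial list, and Acsm1 0.55 with the club, 0.53 with the mucous and 0.48 with the adipocyte list. The list of NRF2 genes, given further below, had a higher r than the ciliated list with Acsm1 (0.63), Fetub (0.69), Sptssb (0.52) and Pnliprp1 (0.31). Its r was lower with Aoc1 (0.61) and Acox2 (0.56). These are descriptions over mice that share an array platform and a lobe, with no test. With the level of the list as a covariate, also chosen after seeing the data, the Aoc1 difference was 0.16 in 2,3-benzofuran, -0.20 in 1,2-dibromoethane, 1.05 in coumarin and 1.56 in 1,5-naphthalenediamine. The Acsm1 difference was 1.14 in 2,3-benzofuran and 0.92 in 1,2-dibromoethane, and that of Fetub in 1,2-dibromoethane 0.47. Sptssb was at 2.73 in 1,5-naphthalenediamine, 1.37 in 2,3-benzofuran, 0.95 in 1,2-dibromoethane and 0.80 in coumarin, and Pnliprp1 at 2.31 in coumarin, 1.40 in 1,2-dibromoethane and 0.68 in 2,3-benzofuran. With this covariate Aoc1 and Pnliprp1 were no longer called in 2,3-benzofuran, nor Fetub in 1,2-dibromoethane, nor Sptssb in coumarin, while Acox2, Sptssb and Aoc1 were called higher in malathion. The level of the list was itself higher in 2,3-benzofuran, coumarin, 1,2-dibromoethane and 1,5-naphthalenediamine. As an RNA level it cannot tell the share of cells from the RNA in each cell. Whether a change in the share of ciliated cells took part in these differences was not tested.

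**Figure D3:**
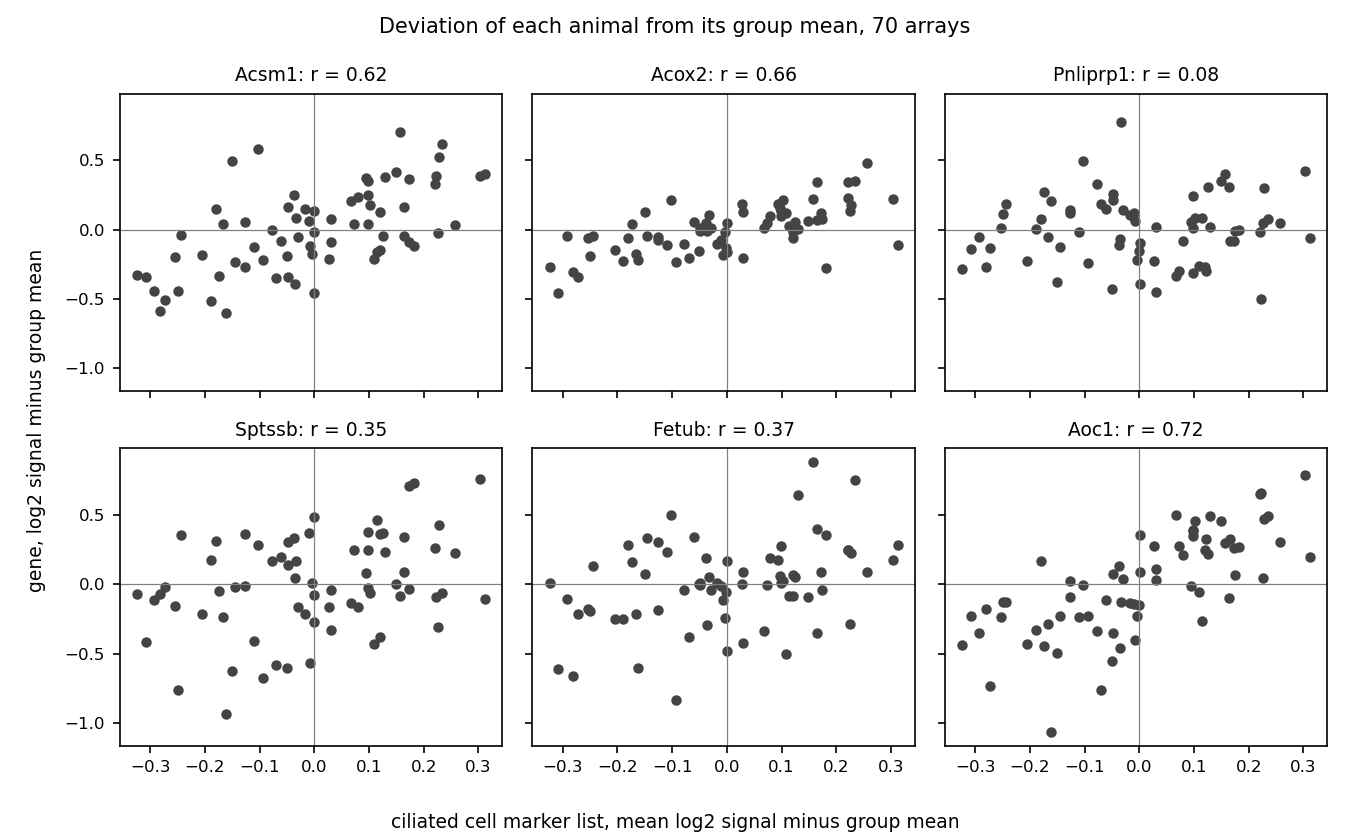
Deviation of each of the 70 mice from its group mean, for the ciliated cell marker list (horizontal axis, mean log2 signal of 8 genes minus the group mean) and for each of the 6 genes (vertical axis, log2 signal minus the group mean), with Pearson r above each panel. Points rise from lower left to upper right for Aoc1, Acox2 and Acsm1 (r of 0.72, 0.66 and 0.62) and show no slope for Pnliprp1 (r of 0.08).

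The vehicle controls were also compared with each other. The corn oil controls of both sets and the feed controls of set 1 are the arrays against which the genes stood higher in the 4 chemicals, and genes that were low in them were more likely to be chosen. Comparisons with these controls are therefore given without p-values, and nothing is read from their counts of calls. Corn oil minus feed in set 1 (3 mice each) gave differences between -0.36 ± 0.33 (Aoc1) and -0.03 ± 0.23 (Pnliprp1), with 0 of 6 called (0% of all genes, and 266 genes with an unadjusted p under 0.05 in limma). In set 2 (8 and 4 mice) Acsm1 was lower in corn oil than in feed by -0.79 ± 0.21, with means of 6.10 and 6.89, and was the 1 of 6 called (3.46% of all genes). The ciliated list was 0.31 lower in corn oil there and the hepatocyte list 0.80 lower. The call was lost with either list as a covariate (-0.43 and -0.68), without control mouse 2-134, 2-42 or 2-43, and with only the arrays of these groups. For Sptssb the 8 corn oil mice (highest 5.74) and the 4 feed mice (lowest 6.00) did not overlap, at -0.69 ± 0.24.

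Water and feed controls of set 2 (4 mice each) were not the controls of those 4 chemicals, but were those of the set 2 chemicals given in feed or water. Their comparison is therefore also given without p-values, and nothing is read from its counts. Limma called 0 of the 6 genes between them, and 33.7% of all genes. The differences, water minus feed, ran from -0.51 ± 0.28 for Sptssb to 0.12 ± 0.14 for Acox2. Without water control 2-129, Sptssb was called, at -0.75. Corn oil minus water, which again holds the corn oil controls, was -0.36 ± 0.12 for Acox2 (means 7.23 and 7.59) and -0.69 ± 0.25 for Aoc1 (means 6.96 and 7.65), the 2 of 6 called (22.9% of all genes). Both calls were lost when control mouse 2-124, 2-127, 2-129, 2-134 or 2-60 was left out. Without corn oil control 2-95 the Acox2 call was lost, without 2-59 or 2-99 the Aoc1 call, and without 2-132 or 2-59 Pnliprp1 was called.

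Between sets, the feed controls (4 mice of set 2 and 3 of set 1) gave 4 of 6 calls, where 41.5% of all genes were called and the median difference of all genes was 0.15. Set 2 was higher by 1.11 ± 0.30 in Sptssb, 0.72 ± 0.27 in Fetub, 0.65 ± 0.26 in Acsm1 and 0.49 ± 0.16 in Acox2. For Sptssb the feed mice of set 2 had 6.16, 6.00, 6.05 and 6.05 and those of set 1 4.64, 5.33 and 4.88, with no overlap. The hepatocyte list was 2.06 higher in set 2, with 7 of its 8 genes called, and with it as a covariate 1 of the 6 genes was called and Fetub differed by 0.22. The number of calls was 1 without feed control 2-43 or 1-29, 2 without 1-27 and 3 without 2-42. In corn oil (8 and 3 mice) Acox2 was 0.34 ± 0.14 higher in set 2, the 1 of 6 called (55.5% of all genes), and not without control mouse 1-22, 1-24 or 2-93. Without 2-60, 3 genes were called there, with Fetub and Sptssb added, and without 2-134, 2, with Fetub added.

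**Figure D4:**
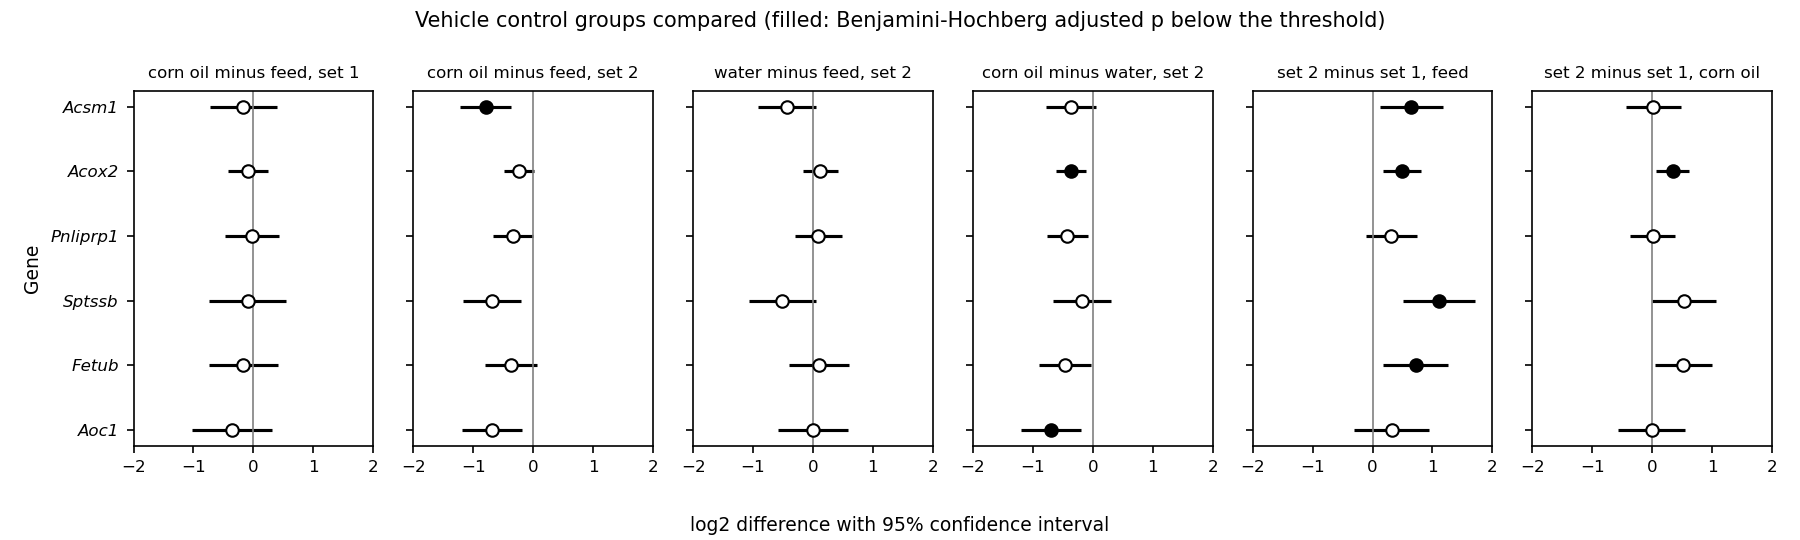
Log2 difference between vehicle control groups for the 6 genes (rows) in 6 comparisons (panels), with the 95% confidence interval of the limma fit as a bar. Filled points passed the adjusted threshold: 1 in corn oil minus feed of set 2, 2 in corn oil minus water, 4 between the feed controls and 1 between the corn oil controls of the sets.

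The other genes of the members' pathways mostly did not pass the test. Of 11 fatty acyl-CoA synthetases tested, none was called in 1,5-naphthalenediamine or 2,3-benzofuran. Acss2, which makes acetyl-CoA from acetate, rose by 0.87 ± 0.12 in coumarin (adjusted p = 3.29e-07) and by 0.46 ± 0.12 in 1,2-dibromoethane (adjusted p = 0.0164). In all, the 13 chemicals gave 5 calls higher and 1 lower in this list, of which N-methylolacrylamide gave 3 of the higher ones (Acsl3, Acsl4 and Acsl5) and malathion the lower one (Acss1; 1.16% of all genes were called lower there). Of 19 peroxisomal genes, Acox2's neighbours in beta-oxidation, 4 calls were higher and 2 lower. Phyh, which starts the breakdown of phytanic acid, rose by 0.44 ± 0.11 in coumarin and Ech1, an enoyl-CoA isomerase, by 0.37 ± 0.11 in 2,3-benzofuran, and the other 4 calls were in N-methylolacrylamide, with Abcd3 and Crot higher and Amacr and Pex11a lower. In that chemical 7.13% of all genes were called lower. Without water control 2-124 the synthetases had 2 calls higher and the peroxisomal genes 2 higher and 0 lower. The synthetases had 2 higher calls without N-methylolacrylamide mouse 2-102 and 3 without 2-106, and the call of Acss1 in malathion was lost without feed control 2-42, 2-43, 2-44 or 2-45 or malathion mouse 2-36, 2-38 or 2-39. The lower peroxisomal calls were 0 without N-methylolacrylamide mouse 2-102, 2-106 or 2-109 and 1 without water control 2-121 or 2-127. The median difference of the peroxisomal list was between -0.11 and 0.20 in all 13 chemicals.

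Among 13 lipases and cofactors, 6 calls were higher and 3 lower, the latter being Dagla, Lipe and Pnpla2 in N-methylolacrylamide, where Lpl was higher. The lower calls were 0 without water control 2-124 or 2-127 or N-methylolacrylamide mouse 2-109, 1 without 2-102 or 2-106, and 5 without water control 2-129. The higher calls were 1 with only the arrays compared, 3 with the mean over probe sets and 10 with array weights. Liph, a phospholipase that releases lysophosphatidic acid, rose in 3 of the chemicals in which the members were high: by 0.60 ± 0.14 in 2,3-benzofuran (adjusted p = 0.00669), 0.57 ± 0.14 in 1,5-naphthalenediamine (adjusted p = 0.0165) and 0.47 ± 0.10 in coumarin (adjusted p = 0.00244). In 1,2-dibromoethane Liph differed by 0.25 ± 0.10 without passing. Pnliprp2, the other pancreatic lipase relative, rose by 0.33 ± 0.08 in both coumarin (adjusted p = 0.0115) and 1,2-dibromoethane (adjusted p = 0.0162), the chemicals with the largest Pnliprp1 differences, and differed by 0.18 ± 0.11 in 1,5-naphthalenediamine and 0.05 ± 0.11 in 2,3-benzofuran without passing. Its level there was 4.72 in both treated groups and 4.39 in the controls, near the filter value of 4.25.

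Sptlc3, a catalytic subunit of the enzyme that Sptssb activates, rose in the same 4 chemicals. It was higher by 0.93 ± 0.20 in 1,5-naphthalenediamine (adjusted p = 0.00302), 0.84 ± 0.20 in 2,3-benzofuran (adjusted p = 0.00758), 0.65 ± 0.15 in coumarin (adjusted p = 0.00339) and 0.52 ± 0.15 in 1,2-dibromoethane (adjusted p = 0.0338). In the other 9 chemicals it lay between -0.33 and 0.07 and none passed. Of the 16 sphingolipid genes tested, 8 calls were higher and 1 lower. Besides Sptlc3 they were Degs2, a desaturase of sphingolipid synthesis, by 0.68 ± 0.13 in coumarin (adjusted p = 0.000424), Cers4 in malathion, and Sptssa, Ugcg and the lower Cerk in N-methylolacrylamide. The lower call was lost without water control 2-121 or 2-124 or N-methylolacrylamide mouse 2-102, 2-106 or 2-109, and there were 2 without corn oil control 2-132, 2-60 or 2-99 or 2-chloromethylpyridine hydrochloride mouse 2-119. The higher calls of this list were 3 with only the arrays compared, 4 with the ciliated list as a covariate and 5 with the mean over probe sets. The list's median difference was -0.01 in 1,5-naphthalenediamine and 0.15 in 2,3-benzofuran.

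Of 11 amine and polyamine genes, 4 calls were higher and none lower: Maob by 0.34 ± 0.09 in coumarin (adjusted p = 0.0199), Sat1 by 0.44 ± 0.10 in malathion (adjusted p = 0.00692), and Hnmt, the other main enzyme of histamine breakdown, by 1.18 ± 0.27 (adjusted p = 0.00349) and Azin1 in N-methylolacrylamide. There were 2 higher calls without water control 2-124 and 7 without 1,2-dibromoethane mouse 2-56, and lower calls numbered 2 without water control 2-129 and 1 without mouse 1-10 or 2-54. Of 9 genes of the fetuin and cystatin family and their target proteases, 2 calls were higher and 2 lower. Cst3, the secreted cystatin C, fell by 0.20 ± 0.05 in coumarin (adjusted p = 0.0051) and in 1,2-dibromoethane (adjusted p = 0.00851), where 1.18% and 2.09% of all genes were called lower, while Cstb, an intracellular cystatin, rose by 0.39 ± 0.11 in 2,3-benzofuran and Mep1a by 0.28 ± 0.08 in 1,2-dibromoethane. The higher calls were 1 without any of the 4 mice given 1,2-dibromoethane, corn oil control 2-59, 2-93, 2-95, 1-22 or 1-24, or mouse 1-10. Over all 6 lists the 13 chemicals gave 29 calls higher and 9 lower. Without the water control mouse 2-124 they gave 19 and 3. The lower calls were 5 without water control 2-127 and 3 or 4 without N-methylolacrylamide mouse 2-102, 2-106 or 2-109, and 14 without water control 2-129. For comparison, the share of all genes called higher ran from 0% to 10.7% over the 13 chemicals, and was highest in N-methylolacrylamide. In the chemicals that gave lower calls in these lists, 1.16% (malathion) to 7.13% (N-methylolacrylamide) of all genes were called lower. Nothing is read from the list totals beside these shares.

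**Figure D5:**
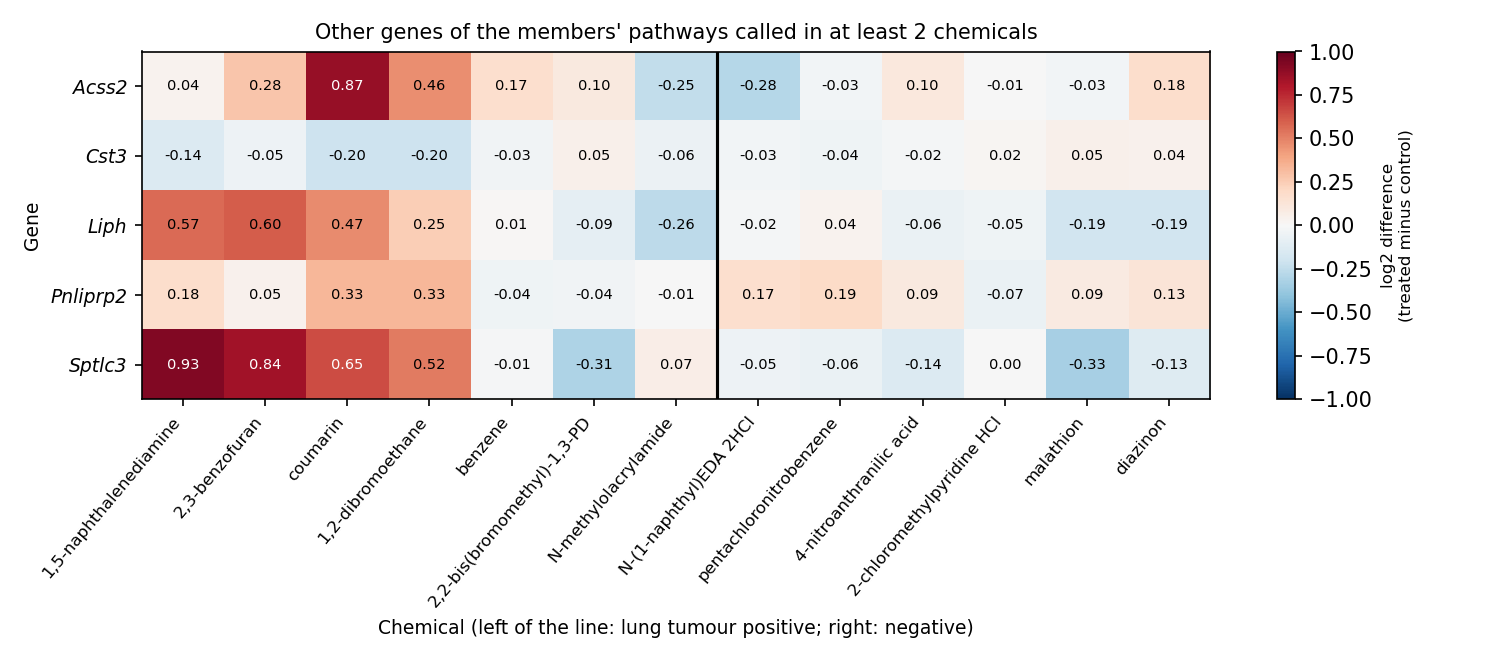
Log2 difference, treated minus matched control, of the 5 pathway genes outside the members that were called in at least 2 chemicals (rows), in the 13 chemicals (columns), with the 7 positive chemicals left of the line. Sptlc3 is at 0.52 to 0.93 in the first 4 columns and between -0.33 and 0.07 in the others.

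Genes of the NRF2 response were called higher in the chemicals with member calls, and fewer also in malathion, where no member was called. NRF2 is the transcription factor that answers electrophiles and oxidants. Of 12 NRF2 genes tested, 12 were called higher in 1,5-naphthalenediamine, 8 in 2,3-benzofuran, 8 in coumarin, 5 in 1,2-dibromoethane, 3 in malathion and 1 in N-methylolacrylamide, and none was called lower. Of all genes, 0.959%, 3.55%, 2.91%, 1.94%, 1.03% and 10.7% were called higher in the same order, so nothing is read from the 1 call in the last. The median difference of the list was 1.51, 0.61, 0.59, 0.36, 0.28 and 0.07 in that order, against medians of all genes between -0.08 and 0.06. The mean level of the list's 13 measured genes was 0.20 higher in pentachloronitrobenzene and in 2,2-bis(bromomethyl)-1,3-propanediol, and 0.37 higher in 1,2-dibromoethane. In that mean all treated mice lay above all controls for 1,5-naphthalenediamine, 2,3-benzofuran, coumarin and pentachloronitrobenzene, and for no other chemical. Nqo1, a quinone reductase, rose by 3.14 ± 0.30 in 1,5-naphthalenediamine (adjusted p = 2.03e-11) and 0.89 ± 0.23 in 1,2-dibromoethane (adjusted p = 0.0164). Gpx2, an epithelial glutathione peroxidase, rose by 2.46 ± 0.25 and 0.99 ± 0.18 in the same chemicals. Both were also called in 2,3-benzofuran, coumarin and malathion. The glutathione transferases Gsta2 (0.81 to 2.08), Gsta4 (0.48 to 0.83) and Gstm1 (0.49 to 1.02) were called in 1,5-naphthalenediamine, 2,3-benzofuran, coumarin and 1,2-dibromoethane, and Gstm1 also in N-methylolacrylamide (0.23). Gclm, a subunit of the enzyme that starts glutathione synthesis (0.43 to 1.48), and Srxn1, sulfiredoxin (0.57 to 1.77), were called in 1,5-naphthalenediamine, 2,3-benzofuran and coumarin, and the thioredoxin reductase Txnrd1 (0.56 to 1.54) in these 3 and malathion. The list holds well-known NRF2 genes and was taken with the results of these chemicals known, so it is not independent evidence of its direction. Within groups its mean level went with the members, with Pearson r over 70 mice of 0.69 for Fetub, 0.63 for Acsm1, 0.61 for Aoc1, 0.56 for Acox2, 0.52 for Sptssb and 0.31 for Pnliprp1.

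Among themselves the 6 genes were not equally alike. As they were chosen for being higher in some of the same chemicals, a high r over chemicals follows in part from that choice. Over the 13 chemicals, which partly share controls, the log2 differences of Acox2 and Fetub had r = 0.96, those of Fetub and Aoc1 r = 0.93 and those of Acox2 and Sptssb r = 0.91, whereas Pnliprp1 had r between 0.25 (with Sptssb) and 0.80 (with Acsm1). Within groups, over 70 mice, the highest was 0.67 between Acsm1 and Fetub and the lowest -0.01 between Pnliprp1 and Aoc1. For comparison, the 99th percentile of r with all other tested genes was 0.48 for Acsm1 and 0.52 for Fetub. The 1,5-naphthalenediamine order of the differences put Sptssb first and Pnliprp1 last, and the coumarin order put Acsm1 and Pnliprp1 first and Sptssb last.

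The genes most like each member within groups were named by Pearson r over the 70 mice. For Acsm1 they were Tspan1, Gsto1 and Cxcl17 (0.77 each). For Acox2 they were Gm19935 (0.74), the ciliated cell gene Cfap126 (0.71) and Wdr31 (0.70). For Pnliprp1 they were the carboxylesterase Ces1f (0.62), H2az1 (0.62) and the retinol dehydrogenase Rdh10 (0.61). For Fetub they were the methionine adenosyltransferase Mat1a (0.73), the ketone body enzyme Bdh1 (0.70) and the dynein assembly factor Dnaaf5 (0.70). Sptssb went with Sh3bgrl2, the dynein heavy chain Dnah7a and Calml4 (0.62 each), and Aoc1 with Tmc5, Prr29 and Tspan1 (0.78, 0.78 and 0.77). Over the 13 chemicals, the genes whose differences most resembled the mean difference of the 6 were Cxcl17, a mucosal chemokine (r = 0.98), the carboxylesterase Ces1g (0.97), the carbonyl reductase Cbr1 (0.97), Tspan1 (0.97), the glutathione transferase Gsto1 (0.97), the aldehyde dehydrogenase Aldh3a1 (0.97), Wfdc2 (0.96), Lrrc51 (0.96), the ciliary gene Cfap52 (0.95) and Slc25a13 (0.95). Cxcl17 differed by 1.60, 1.17, 1.69 and 1.20 in 1,5-naphthalenediamine, 2,3-benzofuran, coumarin and 1,2-dibromoethane, and by -0.34 to 0.34 in the other 9. These correlations are descriptions over 13 chemicals, and the members were chosen for their differences in some of them.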

How the data were processed

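The deposited log2 probe set signals of 70 arrays were used as the authors deposited them. No source used here states how they were summarized and normalized. The deposited values, from 2.47 to 14.5, show a log2 scale. Per the labels, extraction used Trizol followed by RNeasy. Of 45101 probe sets, 34945 had 1 gene symbol, 932 several and 9160 none, and 64 control probe sets were left out. Symbols were updated by Entrez identifier in the RefSeq table of GRCm38.p6. Each gene took its probe set with the highest mean, and genes above the 30th percentile of probe set means (4.25) were tested.

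A mean per group was fitted for 18 groups with limma 3.58.1 in R 4.3.3 with the package data.table (version 1.17.8), by lmFit and eBayes, with Benjamini-Hochberg adjustment over all genes of a comparison and a threshold of 0.05. Each ± in a difference is a standard error from this fit, with intervals at 95%. For the 6 genes the chemical comparisons, and comparisons of controls that share their arrays, are given without p-values, because the genes were chosen on them. The members, lists, tests and alternatives were chosen with earlier results of these data known. Named by rule were the members, list genes called in at least 2 chemicals or else up to 4 per list with the smallest p, the 3 genes most like each member within groups and the 10 most like their mean over chemicals. Other genes of a called list are named where a count is small, and were chosen after their values were seen. Promoter windows came from RefSeq, and plots were made in Python 3.11.15 by matplotlib 3.10.9. The fit was tested on simulated data. The labels give 1 array per animal, and the number of arrays limits the precision. Alternatives were other filters, the mean over probe sets, repeated quantile normalization, fits on the groups compared alone, a variance trend, array weights, the amount handed to the array core, each array left out, and, chosen after seeing the data, covariates for RNA quality and marker lists and the fit without mice 2-56 and 1-10. Sets were not mixed in any chemical comparison.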

Additional observations from a re-analysis of the deposited data

Results flagged for a closer look

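Dixon's criterion at 95% was applied in 72 tests, each of 1 gene in 1 group of 4 to 8 mice. It flagged 4 values as far from the rest of their group, about as many as chance flags (1 in 20). The tests of different genes share mice, so they are not independent. Fetub was high in the diazinon mouse 2-21, at 7.2975 against 6.07 to 6.16 in the other 3, and in the feed control 2-43, at 7.0771 against 5.97 to 6.14. The hepatocyte marker list was at 9.19 and 7.92 in these mice and no higher than 6.75 and 6.78 in the others of their groups. Sptssb was low in the corn oil control 2-60, at 4.7043 against 5.27 to 5.74, and in the malathion mouse 2-33, at 5.9656 against 7.17 to 7.27. In the malathion group mouse 2-33 was also lowest in Aoc1, at 7.47 against 8.70 to 9.19. Taken over the 6 genes, 2-33 and 2-60 had the lowest mean deviations from their groups of all 70 mice, at -0.54 and -0.41, and the 2,3-benzofuran mouse 1-10 the highest, at 0.46.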

How the results depend on the processing

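No paired analysis was possible because the animal identifiers are unique and shared by no groups. No called difference of the 6 genes changed direction in these settings. Of the chemical differences that were not called, 12 turned with the ciliated list as a covariate, to values between -0.20 (Aoc1 in 1,2-dibromoethane) and 0.41. Quantile normalization over again and a variance trend with robust estimation changed no count of called members in any comparison. The 50th percentile filter removed Pnliprp1. With array weights the members called higher were 3 in 2,2-bis(bromomethyl)-1,3-propanediol, 1 in benzene, 1 in 2-chloromethylpyridine hydrochloride and 4 in malathion, against 0 in each. Of all genes, 1504, 147, 254 and 1156 were called higher with array weights in the same order, against 0, 12, 0 and 151. Malathion had 3 of the 6 genes called higher with the ciliated list as a covariate (133 of all genes). It had 1 without mice 2-56 and 1-10 (210 of all genes), and 0 to 2 with each array left out. In 2,3-benzofuran the called members were 4 without mice 2-56 and 1-10. In fits restricted to the compared groups they were 3 in 2,3-benzofuran and 3 in 1,2-dibromoethane, and leaving out each array gave 4 to 6 and 4 to 5. Between controls, genes called in corn oil minus feed of set 2 were 0 with the amount to the core, either list or only those arrays and 2 with array weights (0 to 1 with each array left out), in corn oil minus water 0 with array weights or only those arrays, 1 with RNA quality and 4 with the hepatocyte list (0 to 3), in water minus feed 1 with array weights or the ciliated list (0 to 1), between the feed controls of the sets 1 with the hepatocyte list (1 to 4), and between the corn oil controls 0 with the amount to the core or the hepatocyte list, 2 with array weights and 3 with the ciliated list (0 to 3). The 6 lists had 52 calls higher and 42 lower with array weights, 19 and 4 with the ciliated list, 10 and 3 with only the arrays compared, and 19 to 31 and 3 to 14 with each array left out, and the NRF2 list 21 higher with only the arrays compared. The cause of these shifts was not tested.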
